A study of Danio rerio with 6 samples.

Results

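Retinoic acid is a small signaling molecule made from vitamin A, and the 10 genes described here belong to the machinery that makes it, removes it and responds to it. They were chosen by name: *aldh1a2*, which makes retinoic acid, *dhrs3a*, which returns its precursor to retinol, *cyp26a1*, *cyp26b1* and *cyp26c1*, which break it down, *crabp2a*, which carries it inside the cell, and the receptor genes *raraa*, *rarab*, *rarga* and *rargb*. The 10 genes all have a row among the 23150 genes of the count table, and the 10 were all among the 20021 genes that passed the filter on low counts. RNA was measured in pools of whole zebrafish embryos at 18 hours post fertilization (hpf), with the yolk and chorion removed, in 3 wildtype libraries (dusp2+/+;dusp6+/+) and 3 libraries of double mutants (dusp2um287/um287;dusp6um286/um286). The mutant embryos came from parents that were both homozygous for the 2 deletion alleles. They therefore had no wildtype copy of either phosphatase from their mother or their father. The paper reports that many embryos of such crosses stall at the first cell division and die before gastrulation ends, unlike most wildtype embryos. The mutant pools, collected later, can therefore hold only the survivors of these clutches. Whether this selection shaped any of the differences below was not tested. The um286 allele descends from a single founder fish, the methods name Ekkwill as the wildtype strain, and the strain of the mutant line is not given in the sources used here, so the alleles and any difference in background between the lines cannot be told apart. The embryos were otherwise untreated.

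Retinoic acid is built in steps: retinol is oxidized to retinal by retinol dehydrogenases such as Rdh10, and retinal is oxidized to retinoic acid by the Aldh1a enzymes. In the segmenting embryo Aldh1a2 acts mainly in the somites and the neighbouring mesoderm, while Cyp26 enzymes clear retinoic acid from the tailbud and the anterior neural plate, so that the trunk and the posterior hindbrain lie between sites of removal. Retinoic acid binds nuclear receptors of the RAR family, which sit on DNA with an RXR partner and turn on genes such as the anterior *hox* genes. *cyp26a1* and *dhrs3a* are themselves induced by retinoic acid in vertebrate embryos, and FGF signaling, which Dusp6 restrains, opposes the retinoic acid pathway along the body axis. In double mutants at an earlier stage, the paper saw no difference in phosphorylated ERK, the kinase that Dusp6 acts on. Its in situ staining of the ERK target genes *pea3* and *erm* was also unchanged. A part of FGF signaling in the values below was not tested.

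The libraries held between 36310355 and 45161306 expected counts, with overlapping depths in the 2 genotypes. Libraries are named by the letter the table gives them, A, B or C for wildtype and A, C or D for the mutants. Nothing in the labels says that the libraries of a genotype came from separate pools of embryos, so p-values measure the spread between these libraries, which may be technical. Mutant replicate D stands apart from the other mutant libraries, as a chi-square over its degrees of freedom was 12.9 and 15.7 against them, where the pair of mutant replicates A and C gave 4.37. The *dusp6* transcript was at 212 to 229 CPM (the count relative to the library total, adjusted by TMM factors) in wildtype and at 28.5 to 32.4 CPM in the mutants. The *dusp2* transcript was at 0.934 to 1.55 and at 0.0719 to 0.187 CPM, so both genes followed the genotype labels.

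The gene for the synthesis enzyme, *aldh1a2*, was the one retinoic acid gene of the 10 with a large difference. It was at 71.7, 75.5 and 71.6 CPM in wildtype (A, B, C) and at 45.0, 40.7 and 31.7 CPM in the mutants (A, C, D). Every mutant library lay well below every wildtype library, and mutant replicate D was the lowest. The means were 72.9 ± 2.21 CPM and 39.1 ± 6.78 CPM (SD, n = 3 libraries each), a fall of 46.3% on the scale of the fitted fold change. On the log2 scale the difference was -0.90 (standard error 0.0976, 95% interval -1.11 to -0.68, adjusted p = 6.1e-05 in edgeR's quasi-likelihood test). Without mutant replicate D the log2 fold change was -0.77 (adjusted p = 4.0e-08 in the same edgeR test), and with each of the 6 libraries left out in turn it stayed between -1.01 and -0.77. Among the 12303 genes with a mean at or above that of the lowest of the 10 genes (4.74 CPM), 1.79% had a larger log2 fold change in size. In bulk RNA from whole embryos, fewer cells that express a gene and less of its RNA per cell cannot be told apart, here or in any value that follows.

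**Figure D1:**
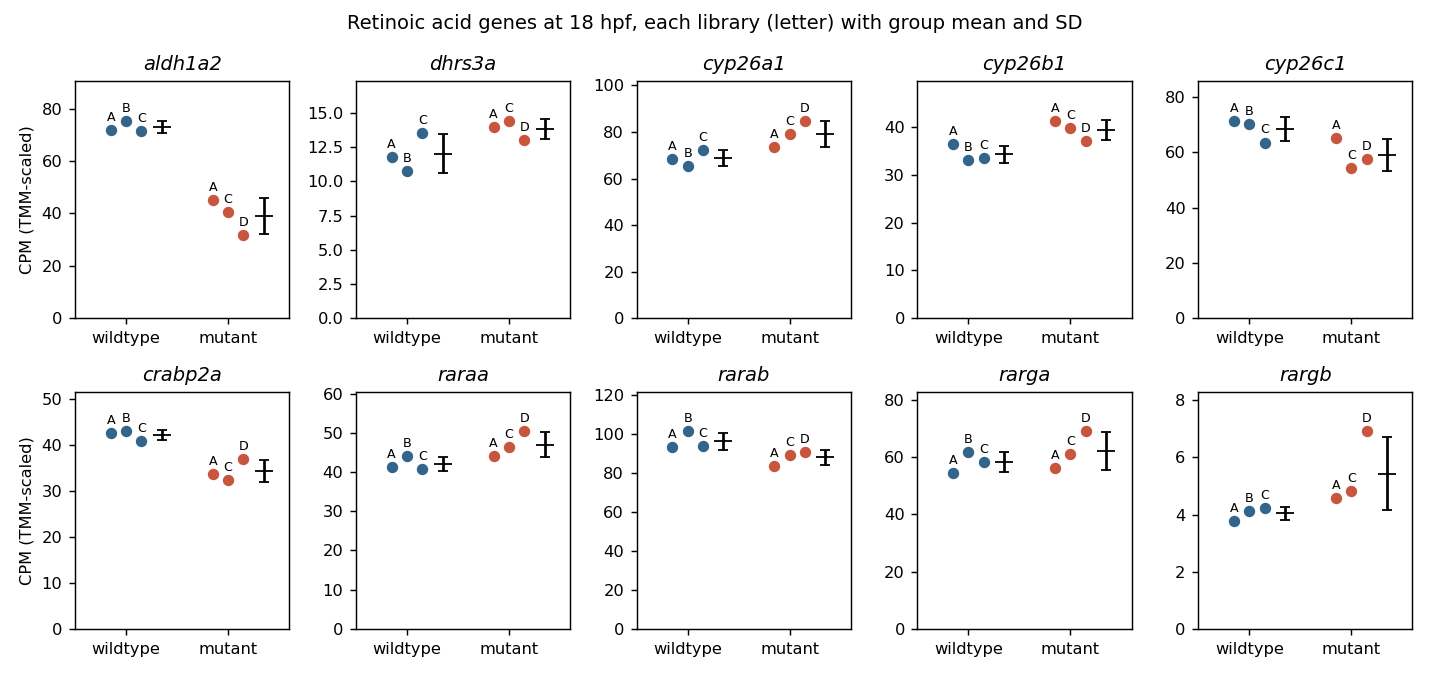
TMM-scaled CPM of the 10 retinoic acid genes in each library (points, lettered by replicate), with the group mean and SD (black bars) and each vertical axis starting at 0. The mutant libraries of *aldh1a2* lie between 31.7 and 45.0 CPM, below the lowest wildtype library at 71.6 CPM, while most other genes differ by far less than their own level.

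Of the 10 genes, 5 passed an adjusted p under 0.05 in edgeR's quasi-likelihood test, 2 higher and 3 lower in the mutants. The background is high: 34.5% of all 20021 genes tested passed (17.4% higher and 17.1% lower), and 41.6% of the 12303 genes whose mean reaches 4.74 CPM, so a count of 5 in 10 is close to what the table as a whole shows. None of the 10 also had a fold change over 2, a rule met by 4.95% of all genes tested, and 8 had an unadjusted p under 0.05. DESeq2's Wald test and limma-voom called the same number at an adjusted p under 0.05, 2 higher and 3 lower. The groups did not overlap in 6 of the 10 genes, against 49.1% of all genes tested and 55.9% of those 12303 genes. The median log2 fold change of the 10 genes was 0.13, beside 0.00 for all genes tested. The count changed with single libraries, falling to 3 without wildtype replicate A and to 2 without wildtype replicate B or mutant replicate C. It was 6 without mutant replicate A or without mutant replicate D. Calls among all genes fell as well, from 6899 to 5016 without wildtype replicate A, 5439 without wildtype replicate B and 5591 without mutant replicate C.

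Genes of the Cyp26 enzymes, the cytochromes that oxidize retinoic acid for removal, moved by small amounts and in both directions. *cyp26a1* was at 68.3, 65.4 and 72.3 CPM in wildtype (A, B, C) and at 73.6, 79.2 and 84.9 CPM in the mutants (A, C, D). The mutant libraries were higher without overlap, although the closest pair, wildtype replicate C and mutant replicate A, lay little more than 1 CPM apart. *cyp26a1* rose by 15.3% (log2 fold change 0.21, standard error 0.0595, adjusted p = 0.020 in edgeR's quasi-likelihood test). *cyp26b1* was at 36.4, 33.1 and 33.4 CPM in wildtype and at 41.4, 39.8 and 37.1 CPM in the mutants, again without overlap. The rise of *cyp26b1* was 14.9% (log2 fold change 0.20, standard error 0.0605, adjusted p = 0.024 in the edgeR test). *cyp26c1* went the other way, from 71.5, 70.4 and 63.6 CPM in wildtype to 65.3, 54.3 and 57.5 CPM in the mutants. Here the groups overlapped, since mutant replicate A lay above wildtype replicate C. The fall of *cyp26c1* was 13.8% in the fit (log2 fold change -0.21, standard error 0.0701, adjusted p = 0.035 in the edgeR test).

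These 3 calls did not outlast the loss of single libraries. *cyp26a1* lost its call without wildtype replicate A (adjusted p = 0.071), wildtype replicate B (0.093) or mutant replicate C (0.055) in the edgeR test. *cyp26b1* lost its call without wildtype replicate B, wildtype replicate C, mutant replicate A or mutant replicate C (adjusted p between 0.072 and 0.099 in the edgeR test). For *cyp26c1* the call was lost without wildtype replicate A, wildtype replicate B or mutant replicate C (adjusted p between 0.11 and 0.14). In every one of these fits the log2 fold change kept its sign. The opposite directions of *cyp26c1* and *cyp26a1* were compared within each library, where scaling plays no part: there were 0.88 to 1.08 *cyp26c1* counts for each *cyp26a1* count in wildtype and 0.678 to 0.887 in the mutants. The ranges overlapped slightly, and the difference gave p = 0.20 in a two-sided exact permutation test, whose smallest possible p is 0.10 with 3 libraries against 3. The summed reads of the 3 genes came to 172 ± 4.1 CPM (wildtype) and 178 ± 3.8 CPM (mutants; both SD, n = 3), with overlapping libraries.

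*dhrs3a* encodes a reductase that turns retinal back into retinol and so withdraws the substrate of Aldh1a2. It was at 11.8, 10.7 and 13.5 CPM in wildtype and at 14.0, 14.4 and 13.0 CPM in the mutants, with mutant replicate D below wildtype replicate C. The log2 fold change of *dhrs3a* was 0.20, with a 95% interval from -0.01 to 0.40 and an adjusted p of 0.12 in edgeR's quasi-likelihood test. Without wildtype replicate C, its highest wildtype library, the log2 fold change was 0.29 (adjusted p = 0.047), and without wildtype replicate B it was 0.12 (adjusted p = 0.37).

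*crabp2a*, the gene of a small cytosolic protein that delivers retinoic acid to its receptors, was the other member whose call held in each fit. It was at 42.7, 43.0 and 40.9 CPM in wildtype (A, B, C) and at 33.7, 32.5 and 37.0 CPM in the mutants (A, C, D). The groups did not overlap, and mutant replicate D, the lowest library for *aldh1a2*, was the highest mutant library here. The mean of *crabp2a* fell from 42.2 ± 1.12 to one of 34.4 ± 2.35 CPM (SD, n = 3 for both), a decrease of 18.5% (log2 fold change -0.30, standard error 0.0593, adjusted p = 0.0030 in edgeR's quasi-likelihood test). With each library left out in turn, its log2 fold change stayed between -0.36 and -0.25 and its adjusted p did not exceed 0.017. Its expected counts were whole in all 6 libraries to within 0.005, the form they take when no read was divided with another gene.

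**Figure D2:**
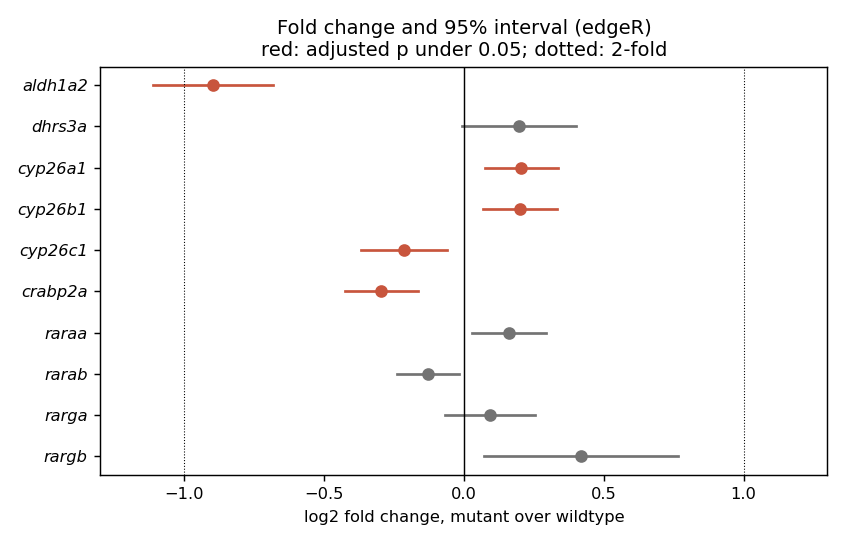
Log2 fold change of the mutants over wildtype for the 10 genes, with the 95% interval from edgeR's quasi-likelihood fit (3 libraries against 3). Red marks the 5 genes at an adjusted p under 0.05, and the dotted lines mark a change of 2-fold, which only the interval of *aldh1a2* reaches (-1.11 to -0.68).

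The genes of the receptors did not pass the test. The RAR proteins bind retinoic acid in the nucleus, and zebrafish keep duplicated copies of the alpha and gamma forms. *raraa* was at 41.3, 44.0 and 40.7 CPM in wildtype and at 44.0, 46.5 and 50.4 CPM in the mutants, and *rarab* at 93.4, 102 and 94.0 CPM against 83.8, 89.6 and 90.9 CPM. The mutant libraries of *rarab* all lay below wildtype, while those of *raraa* overlapped wildtype by a small margin. The log2 fold change was 0.16 for *raraa* (95% interval 0.03 to 0.29, adjusted p = 0.059 in edgeR's quasi-likelihood test) and -0.13 for *rarab* (95% interval -0.24 to -0.02, adjusted p = 0.070). Each crossed the threshold when a single mutant library was left out, *raraa* without mutant replicate A (log2 fold change 0.21, adjusted p = 0.029) and *rarab* without mutant replicate D (-0.16, adjusted p = 0.025). The pair was also compared as a ratio inside each library, free of scaling. Within a library there were 2.26 to 2.31 *rarab* counts for each *raraa* count in wildtype and 1.80 to 1.93 in the mutants, with no overlap. The two-sided exact permutation p was 0.10, the smallest that 3 against 3 libraries allow, and 0.13 adjusted over the 10 ratios computed.

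*rarga* ranged from 54.7 to 61.8 CPM in wildtype and from 56.2 to 69.1 CPM in the mutants, and the groups overlapped (log2 fold change 0.09, 95% interval -0.07 to 0.25, adjusted p = 0.35 in edgeR's quasi-likelihood test). *rargb* had the lowest counts of the 10 genes, 141 to 194 in wildtype libraries and 191 to 259 in mutant ones. Its level was 3.78, 4.14 and 4.22 CPM in wildtype and 4.58, 4.81 and 6.92 CPM in the mutants, where mutant replicate D stood well above the other 2. The log2 fold change of 0.42 (95% interval 0.07 to 0.77, adjusted p = 0.061 in the edgeR test) was 0.21 without mutant replicate D (adjusted p = 0.23) and was 0.53 without mutant replicate A (adjusted p = 0.030). The summed reads of the 4 receptor genes came to 201 ± 9.58 CPM (wildtype) and 203 ± 14.4 CPM (mutants; both SD, n = 3). Levels are not divided by transcript length, so they are compared between libraries and not between genes.

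Set against *aldh1a2* inside each library, the genes of removal had higher ratios in every mutant library than in any wildtype library. There were 0.952, 0.866 and 1.01 *cyp26a1* counts for each *aldh1a2* count in wildtype (A, B, C) and 1.64, 1.95 and 2.68 in the mutants (A, C, D). The 2 genotypes were far apart, a 2.17-fold difference, and mutant replicate D was the highest. The same ratio for *cyp26b1* differed 2.16-fold, for *cyp26c1* 1.62-fold, for *dhrs3a* 2.17-fold and for *crabp2a* 1.53-fold, without overlap in any of them. Each gave p = 0.10 in a two-sided exact permutation test (0.13 adjusted over 10 ratios), the smallest p possible with 3 libraries against 3. These ratios share *aldh1a2* as their denominator and so all carry its fall.

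**Figure D3:**
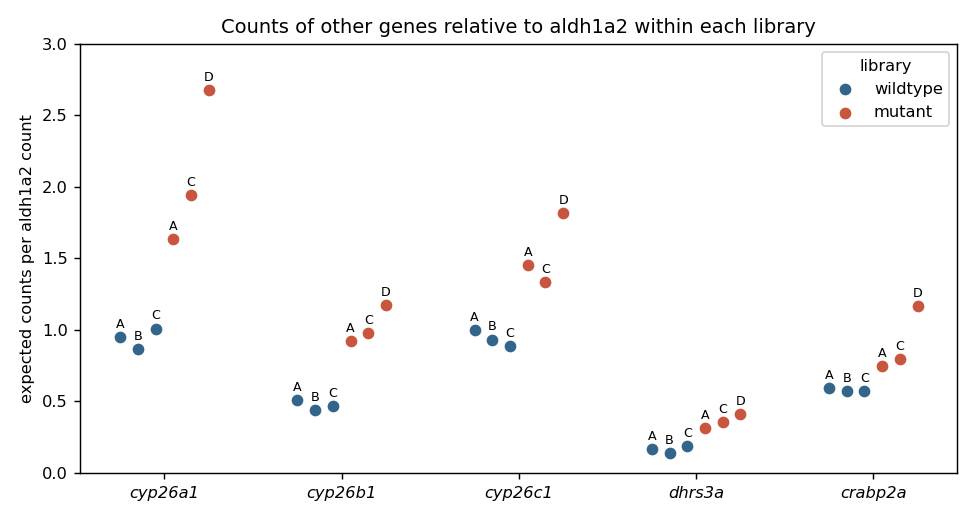
Expected counts of *cyp26a1*, *cyp26b1*, *cyp26c1*, *dhrs3a* and *crabp2a* for each *aldh1a2* count in the same library (points, lettered by replicate, blue wildtype and red mutant). For *cyp26a1* the wildtype libraries lie between 0.866 and 1.01 and the mutant libraries between 1.64 and 2.68.

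Other genes of the pathway were read from a list written from general knowledge, but with earlier results of these data already known. The same holds for the members and for the other lists, so their counts only describe these data. Of 38 genes listed, 32 could be tested, and 15 of them passed an adjusted p under 0.05 in edgeR's quasi-likelihood test, 6 higher and 9 lower in the mutants. That share lies beside 17.4% of all genes tested that were higher and 17.1% that were lower. Of the 32, 2 also had a fold change over 2, beside 4.95% of all genes tested. The median log2 fold change of the 32 genes was -0.01.

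Among genes of synthesis, 2 of 5 passed the test and both were lower, beside 34.5% of all genes tested that passed and 17.1% that were lower. *aldh1a3* encodes another enzyme that makes retinoic acid from retinal, expressed in the eye. It was at 5.61, 8.33 and 7.03 CPM in wildtype and at 3.57, 3.28 and 3.31 CPM in the mutants. The mutant libraries lay close together and below all of wildtype, with a log2 difference of -1.04 (standard error 0.146, adjusted p = 3.1e-04 in edgeR's quasi-likelihood test), and it was -0.91 to -1.18 with each library left out. *rdh10a*, for the retinol dehydrogenase that supplies retinal, was at 63.8, 63.9 and 63.1 CPM in wildtype and at 42.9, 38.2 and 27.4 CPM in the mutants. Its order of libraries in the mutants was that of *aldh1a2*, with mutant replicate D the lowest, and it fell by 43.0% (log2 fold change -0.81, standard error 0.119, adjusted p = 4.4e-04 in the edgeR test). Without mutant replicate D its log2 fold change was -0.65. Its duplicate *rdh10b* had a log2 fold change of 0.12 and an adjusted p of 0.18. The other 2 tested genes of this group, *aldh8a1* and *bcmo1*, the latter for the enzyme that splits beta-carotene into retinal, had log2 fold changes of 0.40 and -0.40 (adjusted p = 0.16 and 0.085).

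Of 4 genes for enzymes that can reduce retinal, 2 were higher and none lower at an adjusted p under 0.05, beside 34.5% of all genes tested that passed. *dhrs3b*, the duplicate of *dhrs3a*, rose from a mean of 16.5 ± 1.41 to one of 20.6 ± 1.66 CPM (SD with n = 3; log2 difference 0.32, adjusted p = 0.012 in edgeR's quasi-likelihood test), a call lost without wildtype replicate A (adjusted p = 0.058). *rdh14a* was higher by a log2 fold change of 0.26 (adjusted p = 0.040), which did not pass in DESeq2's Wald test (0.053), in limma-voom (0.053) or without wildtype replicate A, B or C or mutant replicate A or D (0.092 to 0.11). *rdh12* and *rdh14b* did not pass.

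Of 10 tested genes for uptake and carriage of retinoids, 4 were lower and 1 higher at an adjusted p under 0.05, beside 17.1% and 17.4% of all genes tested. *stra6*, the gene of the membrane receptor through which cells take up retinol, fell from a mean of 25.8 ± 0.791 to one of 19.3 ± 2.69 CPM (SD with n = 3; log2 difference -0.42, adjusted p = 0.0045 in edgeR's quasi-likelihood test). *crabp2b*, the duplicate of *crabp2a*, fell from 27.1 ± 1.73 to 17.8 ± 2.1 CPM (log2 fold change -0.60, adjusted p = 3.7e-04 in the same test), with no overlap. Its sister *crabp1b* had a log2 fold change of -0.28 (adjusted p = 0.091). *rbp1a* and *rbp7b*, genes of cellular retinol-binding proteins, were lower by log2 fold changes of -0.28 (adjusted p = 0.0047) and -0.49 (adjusted p = 0.015), and *rbp7b* lost its call without wildtype replicate A or C (adjusted p = 0.052 and 0.069). *rbp7a* was the exception and rose. Its libraries held 34.2 to 54.4 counts in wildtype and 122 to 157 in the mutants, which gave a log2 difference of 1.73 (95% interval 1.23 to 2.23, adjusted p = 2.2e-04 in the edgeR test).

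Partners and cofactors of the receptors gave small differences in both directions, with calls to be read beside the 34.5% of all genes tested that passed. RXR proteins pair with RARs on DNA, and of 6 tested RXR genes *rxraa* was lower (means of 19.3 ± 0.335 against 15.5 ± 1.47 CPM, SD with n = 3, log2 difference -0.32, adjusted p = 0.0076 in edgeR's quasi-likelihood test) and *rxrba* higher (log2 fold change 0.17, adjusted p = 0.025). The call of *rxrba* was lost without wildtype replicate A or C or mutant replicate A or C (adjusted p between 0.058 and 0.10). The corepressor gene *ncor1* had a log2 fold change of 0.04 and did not pass. *nrip1a* and *nrip1b*, genes of a ligand-dependent corepressor of nuclear receptors, fell by 0.56 and 0.39 on the log2 scale (adjusted p = 0.0010 and 8.3e-04 in the edgeR test). The coactivator genes *ncoa1* and *ncoa2* rose by log2 fold changes of 0.22 and 0.24 (adjusted p = 0.022 and 8.7e-04), of which *ncoa1* lost its call without any one wildtype replicate or without mutant replicate D (adjusted p between 0.050 and 0.073). Their relative *ncoa3*, also a coactivator gene, had a log2 fold change of -0.09 and did not pass (adjusted p = 0.11 in the edgeR test).

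**Figure D4:**
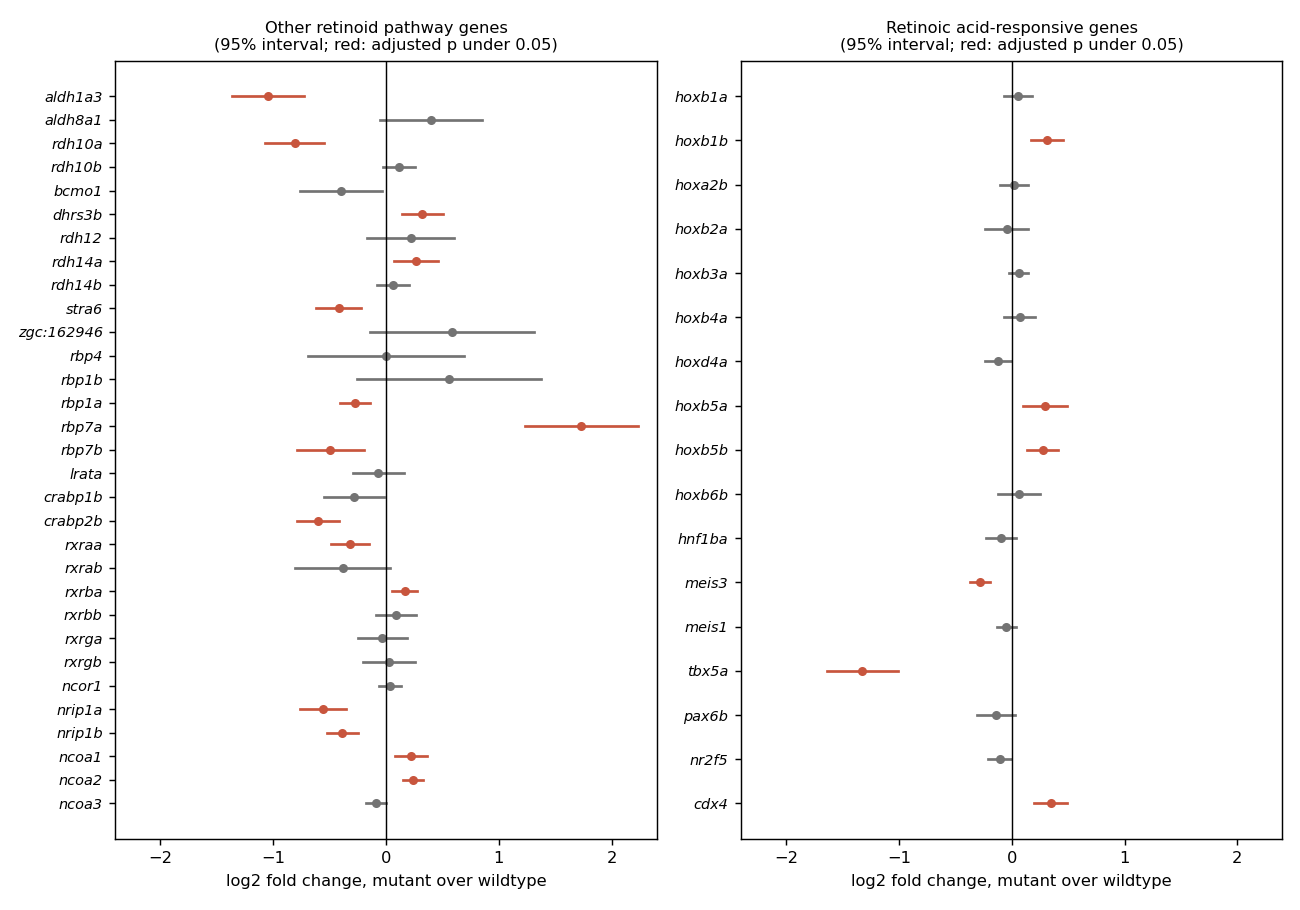
Log2 fold change of the mutants over wildtype with the 95% interval from edgeR's quasi-likelihood fit for 31 of the 32 tested further genes of the retinoid pathway (left, named as in the count table) and 17 genes known to respond to retinoic acid (right). Red marks an adjusted p under 0.05, held by 15 and 6 genes, and the points farthest from 0 are *rbp7a* (1.73) on the left and *tbx5a* (-1.32) on the right.

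Of 17 genes known to respond to retinoic acid, 6 passed the test, 4 higher and 2 lower, a share near the 34.5% of all genes tested, and the median log2 fold change was 0.02. *tbx5a*, a T-box gene of the heart and pectoral fin fields whose expression in the fin field needs retinoic acid in zebrafish, was at 5.07, 4.43 and 5.33 CPM in wildtype and at 2.23, 1.88 and 1.82 CPM in the mutants. The groups were far apart, and it was the only one of the 17 called with a fold change over 2 (log2 fold change -1.32, standard error 0.142, adjusted p = 5.6e-05 in edgeR's quasi-likelihood test). That rule was met by 4.95% of all genes tested. *meis3*, a homeobox gene of the hindbrain, fell by 0.28 on the log2 scale (adjusted p = 4.5e-04). Of 10 *hox* genes, 3 were higher and none lower, beside 17.4% and 17.1% of all genes tested. *hoxb1b*, one of the earliest *hox* genes in the hindbrain and a direct target of retinoic acid, rose from a mean of 68.2 ± 4.54 to one of 84.9 ± 6.44 CPM (SD with n = 3; log2 difference 0.31, adjusted p = 0.0034 in the edgeR test). *hoxb5a* and *hoxb5b* rose by log2 fold changes of 0.29 and 0.27 (adjusted p = 0.024 and 0.0069), the call of *hoxb5a* being lost without wildtype replicate A or B or mutant replicate C (adjusted p between 0.067 and 0.10). *cdx4*, a caudal gene of the posterior body, rose from 158 ± 8.73 to 201 ± 19.4 CPM (log2 fold change 0.35, adjusted p = 0.0023 in the edgeR test).

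Markers of the tissues that use this pathway were read beside these values, and their counts stand beside 17.4% of all genes tested that were higher and 17.1% that were lower. Every marker tested was detected, none at 0, and the lowest mean over the 6 libraries was 1.44 CPM. The 8 genes of the somites and presomitic mesoderm, where *aldh1a2* is expressed at this stage, summed to 383 to 397 CPM in wildtype and 391 to 413 CPM in the mutants, with 3 higher and none lower in edgeR's quasi-likelihood test. Single genes of this list were named after their values were seen. In mutant replicate D the somite genes *meox1* and *myod1* were lowest of all 6 libraries (117 and 30.2 CPM). The presomitic gene *tbx6* was highest there (140 CPM), and so were *myf5* (45.6 CPM) and *foxc1a* (31.1 CPM). *mespaa*, *mespab* and *ripply1* were at neither end in that library. Of 6 tailbud genes, which mark a site of *cyp26a1* expression, 5 were higher and none lower, and their sum was 171 to 192 CPM in wildtype and 230, 254 and 319 CPM in mutant replicates A, C and D. The 7 eye genes, which mark a site of *aldh1a3* and *aldh1a2* expression, had 2 higher and 3 lower, with a sum of 268 to 280 CPM in wildtype and 242, 223 and 200 CPM in mutant replicates A, C and D. Mutant replicate D was at the end of the range for the tailbud and eye sums, as it was for *aldh1a2*, *rdh10a* and *cyp26a1*. The same library was also highest for the hindbrain (309 CPM) and the neural crest and arch (333 CPM) sums. It was lowest for the heart and pronephros sum (91.8 CPM), and at neither end for the somite and presomitic sum (394 CPM). Hindbrain genes summed to 241 to 265 CPM in wildtype and 286 to 309 CPM in the mutants, with 2 of 6 higher. Most of that rise was *irx1b* (means of 75.1 and 110 CPM), and the other called gene was *egr2b* (35.6 and 44.6 CPM). *mafba*, *hoxb1a*, *hoxa2b* and *vgll2b* did not pass, the last with a log2 fold change of -0.27. Neural crest and arch genes summed to 269 to 272 and 285 to 333 CPM, with 2 of 5 higher. *tfap2a* held most of that sum (means of 162 and 190 CPM), and *sox10*, *foxd3* and *dlx2a* did not pass. Heart and pronephros genes summed to 111 to 117 and 91.8 to 105 CPM, with 2 of 6 higher and 2 lower. Most of that sum was *pax2a* (means of 66.1 and 57.2 CPM) and *cdh17* (36.5 and 25.7 CPM). The heart genes *nkx2.5*, *myl7* and *gata4* had low levels, with group means between 1.12 and 2.49 CPM. *nkx2.5* and *myl7* did not pass (log2 fold changes of 0.09 and 0.06), and *gata4* was higher (0.64, adjusted p = 0.021 in the edgeR test). The part of these shifts in the differences of the retinoic acid genes was not tested.

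The tested neighbours of *aldh1a2* in the gene order of the zebrafish assembly GRCz12tu had log2 fold changes from -0.24 to 0.76. The lowest were *wu:fd55e03* (-0.24) and *zgc:162945* (-0.23), and neither passed (adjusted p = 0.31 and 0.16 in the edgeR test). Of the 5 nearest genes on each side that could be tested, 2 were higher and none lower at an adjusted p under 0.05 in edgeR's quasi-likelihood test, beside 17.4% and 17.1% of all genes tested. *polr2m* on one side had a log2 fold change of 0.26 and *aqp9b* on the other 0.76, the latter at under 1 CPM in both groups, and neither passed (adjusted p = 0.10 and 0.15). The 2 called neighbours were *serf2* and *ccnb2*, higher by log2 fold changes of 0.20 and 0.27. Expected counts were whole in all 6 libraries for *crabp2a* and *rargb* and in 5 of 6 for *aldh1a2*. They were whole in 4 of 6 for *dhrs3a* and *cyp26b1* and in 3 of 6 for *raraa* and *rarga*. For *cyp26c1* and *rarab* they were whole in 2 of 6, and for *cyp26a1* in 1 of 6. Where counts were not whole, a part of the reads of the gene also fitted other transcripts.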

How the data were processed

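Reads of strand-specific mRNA libraries were aligned by the authors to the DanRer7 zebrafish transcriptome with RSEM (version 1.2.28 in the submitters' processing notes), ribosomal RNA was removed, and the deposited values are expected counts per gene, not normalized. DanRer7 is the name in the paper's methods, while the processing notes list both GRCz10 and danRer7. The lowest sum over the 6 libraries is 11. The authors' own DESeq2 columns (fold changes, p-values) were not used. Columns carry genotype and a letter, so they were assigned to a genotype and not to a numbered replicate. There are 0 other columns of per-library values.

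Expected counts were rounded and filtered with filterByExpr, and genotypes were compared with edgeR 4.0.16 (TMM, glmQLFit, glmQLFTest) in R 4.3.3 with Benjamini-Hochberg adjustment over 20021 genes. Standard errors are the log2 fold change over the square root of F, and intervals use the t distribution of the fit. CPM are TMM-scaled. The alternatives were DESeq2 1.42.0, limma-voom 3.58.1, other scalings, filters and call rules, and each library left out. The test was tried on counts simulated from its own fit, in which few genes differed. That trial does not check the test under the spread and the share of calls seen here. Named genes were the 10 members, the called genes of both lists, and *dusp6* and *dusp2*, with further genes chosen after their values were seen. The members and lists were chosen with earlier results of these data known. Of 104 list entries, 100 matched a row, 6 of them through synonyms in the GRCz12tu gene table. Some listed genes that the totals count are not reported here. No sequences are shown.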

Additional observations from a re-analysis of the deposited data

How the results depend on the processing

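The calls and directions of *aldh1a2* and *crabp2a* held under all 12 alternatives for each, with log2 fold changes from -1.01 to -0.77 and from -0.36 to -0.25. Other scalings, filters and tests gave 5 called members each, and moved the median of all genes by less than 0.01 on the log2 scale. A fold change over 2 in addition left 992 of 6899 genes, 0 of 5 members, 2 of 15 pathway genes and 1 of 6 retinoic acid-responsive genes, and an adjusted p under 0.01 left 2 members, by construction of the rules. Leaving out each library gave 5016 to 6774 genes, 2 to 6 members, 10 to 17 pathway genes and 5 to 7 responsive genes. The log2 fold changes then ran from 0.12 to 0.29 for *dhrs3a*, 0.15 to 0.26 for *cyp26a1*, 0.17 to 0.24 for *cyp26b1*, -0.29 to -0.16 for *cyp26c1*, 0.10 to 0.21 for *raraa*, -0.16 to -0.091 for *rarab*, 0.01 to 0.16 for *rarga* and 0.21 to 0.53 for *rargb*. Each such fit also had fewer libraries, and the cause of the calls gained or lost was not tested. No paired analysis was possible because the columns of the count table carry letters and not the replicate numbers of the labels.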

Other observations

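Among the tissue markers, chosen here after their values were seen, the heart and pronephros list held genes that differed in both directions. In RNA of whole embryos the tissue in which they differed is not shown. *cdh17*, a cadherin of the pronephric duct, fell from 36.5 ± 3.4 to 25.7 ± 2.31 CPM (SD, n = 3 libraries each; log2 fold change -0.51, adjusted p = 7.8e-04 in edgeR's quasi-likelihood test), while *lhx1a*, a homeobox gene of early kidney mesoderm, rose from 5.35 ± 0.259 to 8.79 ± 0.266 CPM (log2 fold change 0.71, adjusted p = 1.8e-04). In the eye list, *rx3*, which acts early in the eye field, was higher by a log2 fold change of 0.79 (7.53 ± 0.849 CPM in wildtype against 13.0 ± 2.33 CPM in the mutants, SD, n = 3 each, adjusted p = 8.5e-04 in the edgeR test).

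Of the 5 nearest tested genes on each side of *crabp2a* in gene order, 3 were lower and none higher at an adjusted p under 0.05 in edgeR's quasi-likelihood test, beside 17.1% and 17.4% of all genes tested. These were *trim109*, *itga10* and *mrpl13*, with log2 fold changes of -0.52, -0.53 and -0.19.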
